A study of Homo sapiens with 2 samples.

Results

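Array probes whose positions span a gap were examined as probes of exon junctions. The HEK-293 cells had received a mimic of miR-204 or, as the control, scrambled oligos. The members were the probes, other than controls, whose deposited hg18 positions start and end more than 100 bases apart on 1 chromosome. This rule was met by 4745 of 41000 probes, or 11.6%, under 4408 gene names, of which 4115 had 1 such probe and 293 had more. They were compared with contiguous probes, whose ends lie within 60 bases. There were 35389 of these, and 34138 of them had ends exactly 59 bases apart, the length of a single unbroken probe. A further 452 probes had ends 61 to 100 bases apart and 414 had no position, and these belonged to neither kind.

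HEK-293 is an established line derived from human embryonic kidney. The miR-204 group received 75 nM of the miR-204 mimic and the control group 75 nM of scramble oligos, each for 48 h, with serum in the medium of both. RNA of the control was labelled with Cy3 and RNA of the miR-204 cells with Cy5 on array 1, and the dyes were exchanged on array 2, the dye swap. The arrays were counted as 1 replicate of the comparison, so no test across conditions was possible. Values are therefore given for each array, and the number of arrays limits their precision.

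Messenger RNA is made by cutting out introns and joining the exons that flank them. A probe laid across such a join pairs along its whole length only with RNA in which these exons were spliced together, whereas a probe inside an exon pairs with every transcript that holds the exon. Many probes of this array type are designed towards the 3′ end of transcripts, and a junction probe lies inside the spliced body by construction. A miRNA pairs through its seed mostly with sites in 3′ untranslated regions and lowers the level or the translation of the whole mRNA.

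The mature miR-204-5p is shown because the groups differ by a mimic labelled miR-204. It is given as in RefSeq (GRCh38.p14, chr9:70810031-70810052, minus strand), with the seed, bases 2 to 8, in capitals. The labels give neither the letters of the mimic nor which arm of the hairpin it copies, so that the 5p arm is shown as the RefSeq entry and not as the oligonucleotide used.
miR-204-5p: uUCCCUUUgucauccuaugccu

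The distance between the ends of a junction probe had a median of 1201 bases, with quartiles of 411 and 3163 bases. It was over 1000 bases for 2601 probes, over 10000 for 358 and over 100000 for 26. Of the 3163 junction probes on the chromosome that RefSeq gives for their gene name, 3142 (99.3%) ran in the direction of the gene. Of 18066 contiguous probes placed in the same way, 17919 (99.2%) did so, so that direction does not set the junction probes apart. The name exon junction thus rests on the gap in the deposited positions, and the place of the join within a probe was not read here. The name was doubtful at both limits of the span. The 3 longest, of 444438, 340185 and 322935 bases, belonged to X86121, ENST00000390613 and IGHA1. IGHA1 encodes an immunoglobulin heavy chain, a gene assembled by DNA rearrangement in B cells, and these 3 probes were well above background in no channel. At the other limit, the unnamed probes A_24_P375510 and A_24_P581618 had spans of 101 bases, which leaves at most 42 bases of intron within each. Just outside it, A_24_P471242 and the LOC401960 probe A_32_P212712 had spans of 99 bases.

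A probe was counted where it was well above background in all 4 channels and carried no outlier flag. This held for 2898 junction probes (61.1%) and for 19878 contiguous probes (56.2%). Of the other junction probes, 1360 were well above background in no channel, 480 were so in 1 to 3 channels, and 10 of the 4745 carried a flag. Among genes HEK-293 is known to express, 6 of 7 passed in all 4 channels with at least 1 probe, PAX2 being the exception. Among 7 genes of blood, liver, pancreas, glia and muscle, only GFAP did so.

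Junction probes as a whole stood lower than contiguous probes on array 1, but not on array 2. Their median log2 ratio, miR-204 over control, was -0.15 on array 1 (SD 0.44 over 2898 probes) and 0.02 on array 2 (SD 0.29). The contiguous probes had medians of 0.05 (SD 0.42) and 0.00 (SD 0.28). On array 1 64.6% of the junction probes and 44.9% of the contiguous probes were below 0, and on array 2 46.9% and 49.8%. Across probes the 2 arrays were not correlated positively in either kind, with Pearson's r of -0.20 over 2898 junction probes and -0.05 over 19878 contiguous probes. These points share both RNAs and both arrays, and after the turn of the dye swap any dye effect enters the arrays with opposite sign.

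Past a mean of 2-fold, with the same sign on both arrays, 8 junction probes were lower (0.276%) and 1 was higher (0.0345%). Over all 23159 counted probes the shares were 0.134% lower and 0.0734% higher. On array 1 alone 130 junction probes (4.49%) were lower by 2-fold and 8 (0.276%) were higher, where the shares of all counted probes were 2.34% and 0.613%. On array 2 alone they were 1 (0.0345%) and 13 (0.449%), where the shares of all counted probes were 0.0605% and 0.216%. No junction probe was past 2-fold on each of the 2 arrays.

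Ezrin, named VIL2 in the files, links the actin cytoskeleton to the cell membrane and is one of the genes the study examined with miR-204. The study chose it in part for its strong change in the microarray analysis of this experiment. Its low rank here is therefore not independent of that choice. Its junction probe A_24_P290481 lies at chr6:159117505-159124579 (hg18, minus strand), which leaves at most 7015 bases of intron within it. The processed signal was 298 in the control and 107 in the miR-204 RNA on array 1, and 205 and 105 on array 2. Both miR-204 signals lay below both control signals. The log2 ratios were -1.47 ± 0.25 and -0.96 ± 0.23, where the error is that of the scanner software's error model for 1 array. The mean of -1.22 is 2.32-fold lower, and only 0.0475% of all counted probes had a mean as low. The contiguous Ezrin probe A_23_P19590 had log2 ratios of -0.39 and -0.15. The junction probe thus stood below it by -1.08 ± 0.32 on array 1 and by -0.81 ± 0.31 on array 2. Both probes of this gene were below 0 on both arrays, and they differed by more than the software's errors. The mean difference of -0.95 depended on the background correction, being -0.54 with a normexp correction and loess and -0.56 with mean signals left uncorrected.

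The Ezrin junction probe lies 13354.5 bases to the 5′ side of the contiguous probe, introns included, between the middles of the 2 probes. Among 559 pairs of contiguous probes of 1 gene set 10000 to 30000 bases apart, the 5′ probe stood as far below the other as Ezrin's in 31 on array 1, in 3 on array 2 and in 1 on both. Among 317 pairs of a junction and a contiguous probe at this distance, Ezrin's own included, the counts were 25, 2 and 1. The Ezrin pair thus stood farther out among such pairs on array 2 than on array 1. This is a rank and no test, for a gene chosen in part from the same experiment.

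Comparing each junction probe with the mean of the contiguous probes of its own gene takes out what the probes of the gene share. Of the 2898 counted junction probes, 1435 in 1317 gene names had such a partner, 980 of them a single one. The median difference was -0.20 on array 1 (SD 0.44) and -0.01 on array 2 (SD 0.29), and the median of the mean difference was -0.10 (SD 0.26). On array 1 1030 of the 1435 differences (71.8%) were below 0, and on array 2 735 (51.2%). Contiguous probes set against the other contiguous probes of their gene, 7839 probes in 3498 gene names, had medians of 0.00 on both arrays. The difference had the same sign on both arrays for 654 junction probes (45.6%), against 45.9% of contiguous probes. Both arrays were below 0 for 492 junction probes (34.3%) and both above for 162 (11.3%), against 22.6% and 23.3% of contiguous probes. Of the 7839 contiguous probes 5654 had a single partner, and each such pair enters from both of its probes with opposite signs. The contiguous medians near 0 and the like shares below and above 0 thus follow from the pairing and are no independent baseline.

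Past 2-fold in the mean with the same sign, 7 junction probes in 5 gene names stood below their contiguous partners (0.488%), and 0 stood above. The shares for contiguous probes were 0.153% below and 0.115% above, where pairs of single partners count from both sides, so that the 2 shares are alike by construction. The 7 were 3 probes of PTMA and 1 each of EHBP1, TLN2, KIAA1407 and CDC2L2. The EHBP1 and TLN2 probes were also past 2-fold in their own ratio, as was 1 of the PTMA probes.

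PTMA encodes prothymosin alpha, a small acidic nuclear protein bound to chromatin. Its junction probe A_24_P34632, at chr2:232284315-232284844 (hg18), had signals of 21479 in the control and 7560 in the miR-204 RNA on array 1, and of 13859 and 10011 on array 2. Its log2 ratios were -1.53 ± 0.25 and -0.48 ± 0.21. The neighbouring junction probe A_24_P264207 gave -1.07 and -0.63, and A_24_P264211, the most 5′ of them, gave -1.30 and -0.40. All 3 were below 0 on both arrays. The contiguous PTMA probes went the other way on array 1, with 0.64 for A_23_P434301 and 0.78 for A_24_P542375, and were near 0 on array 2 with -0.03 and -0.16. The mean differences of the junction probes from these were -1.31, -1.16 and -1.16, with -2.25, -1.78 and -2.01 on array 1 and -0.38, -0.53 and -0.30 on array 2. PTMA has processed copies elsewhere in the genome, which lack introns and which probes of either kind may also read, so that the level behind each probe is uncertain.

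EHBP1, an adaptor between endocytosis and the actin cytoskeleton, had a junction probe with contiguous probes on both of its sides. The junction probe A_24_P194886, at chr2:62939930-62945428 (hg18), had signals of 337 in the control and 111 in the miR-204 RNA on array 1, and of 203 and 117 on array 2. Its log2 ratios were -1.59 and -0.81, the mean of -1.20 being among the 8 lower calls. The contiguous probe 183572 bases to its 3′ side had 0.49 and 0.03, and the one 154922 bases to its 5′ side had -0.46 and -0.24. The junction probe was below both neighbours on both arrays, by -1.61 ± 0.30 and -0.70 ± 0.28 from their mean.

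TLN2 encodes talin 2, which couples integrins to actin. Its junction probe A_32_P170406, at chr15:60731592-60732678 (hg18), had signals of 88.1 in the control and 33.9 in the miR-204 RNA on array 1 and of 54.6 and 35.0 on array 2. It was the only member more than 2-fold below its partner on each array, by -1.09 ± 0.38 and -1.12 ± 0.40. The partner A_24_P347566, 188370 bases to the 3′ side, had log2 ratios of -0.27 and 0.48, and all of these signals were dim. The difference depended on the background correction. It was -0.42 in the mean with a normexp correction and loess, and -0.46 with mean signals left uncorrected, in place of -1.11. The EHBP1 difference was -0.81 and -0.84 under the same settings, in place of -1.15, and was then no longer past 2-fold.

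KIAA1407, now CCDC191, had a junction probe at -0.63 and -0.46 beside a contiguous probe at 0.90 and 0.14. CDC2L2, now CDK11A, encodes a cyclin-dependent kinase with a near-identical neighbour gene, so that its probes may read either. Its junction probe was at -1.58 and -0.28 beside a contiguous probe at -0.23 and 0.48, and its probes of both kinds were dim. The junction signals were 75.2 (control) and 25.2 (miR-204) on array 1 and 58.6 and 48.4 on array 2. Both junction probes were below their partner on both arrays, and more so on the first, by -1.53 and -1.35 against -0.60 and -0.76.

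Past these 7, the lowest same-sign differences were those of MAN2C1, Ezrin, DFFB, CHD6 and FAM135A, whose means lay between -0.97 and -0.91. MAN2C1 encodes a cytosolic alpha-mannosidase. Its junction probe at chr15:73436277-73437634 (hg18) and its contiguous partner run in opposite directions in the files, so that the pair does not read 1 strand, and the differences of -1.68 and -0.26 are no comparison within a transcript. DFFB, the nuclease that cuts DNA in apoptosis, was at -1.11 and -0.42 in its junction probe and 0.18 and 0.17 in its contiguous probe. CHD6, a chromatin remodeller, was at -1.23 and -0.21 against 0.38 and 0.06. FAM135A was at -0.60 and -0.53, below both of its contiguous probes on both arrays. Of the 12 lowest, 9 lay to the 5′ side of their partners, 1 to the 3′ side and 1 between them. This is near the share over all pairs on 1 chromosome and strand, where the junction probe was on the 5′ side in 83.5%. The size was beyond the software's error on both arrays for 10 of the 12, and beyond 2 errors on both for 5. These probes, from 10 gene names, were picked for their size, so that such counts do not show that they stand out.

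Among the 8 probes lower by 2-fold in their own ratio, those of EML2 and STK19 were carried by array 1. EML2 encodes a microtubule-binding protein. Its junction probe A_23_P101297 had signals of 438 and 46.7 in the control and the miR-204 RNA on array 1, and of 117 and 93.3 on array 2, giving log2 ratios of -3.22 and -0.34. STK19, in the histocompatibility region of chromosome 6, had 694 and 114 on array 1 and 289 and 245 on array 2, giving -2.60 and -0.25. In both the control signal of array 1 was far above the other 3, and the miR-204 signal of array 1 was the lowest. Neither gene had a counted contiguous probe to set beside it. The remaining calls were MGC87631 at -1.56 and -0.79 and ZNF704, a zinc finger gene, at -1.20 and -0.80. The contiguous ZNF704 probe had -0.40 and -0.69, so that both of its probes were below 0 on both arrays. The means of PTMA, ZNF704 and TLN2 all lay within 0.01 of the threshold.

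The single junction probe higher by 2-fold belonged to ENST00000357697, at chrX:140006026-140006159 (hg18). Its signal was 50.1 in the control and 174 in the miR-204 RNA on array 1 and 73.2 and 114 on array 2, giving log2 ratios of 1.79 and 0.62. Both miR-204 signals lay above both control signals. Its gene name was not matched in the RefSeq table and had no contiguous probe.

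No junction probe stood 2-fold above its contiguous partners, and the highest same-sign mean difference was 0.96 for ZNF776, a zinc finger gene. Its junction probe was at 0.50 and 0.15 and its counted contiguous probe, which was dim, at -1.01 and -0.25. APOBEC3D, a cytidine deaminase that restricts retroviruses, was at 0.37 and 0.80 in its junction probe against -0.46 and -0.11, with dim signals throughout (26.4 and 34.7, then 21.7 and 36.6, in the control and the miR-204 RNA). WWOX, an oxidoreductase gene spread over a fragile site, was at 0.60 and 0.88. Its signals were 82.5 and 125 on array 1 and 49.4 and 90.8 on array 2. Its contiguous probes, 1 on each side, were at -0.08 and 0.04 (12364 bases to the 5′ side) and at 0.16 and -0.24 (1100234 bases to the 3′ side). The WWOX junction probe was above both of these probes on both arrays. These high differences also depended on the background correction. With a normexp correction and loess, and with mean signals left uncorrected, the mean difference was 0.42 and 0.46 for ZNF776, 0.21 and 0.30 for APOBEC3D (in place of 0.87), and 0.37 and 0.41 for WWOX (in place of 0.77). CTSC, the lysosomal protease cathepsin C, was at 0.30 and 0.16 against -0.50 and -0.49.

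SNX27, a sorting nexin of endosomes, had a junction probe at 0.08 and 0.31, and its contiguous probe was at -1.16 on array 1 and 0.15 on array 2. In CSNK1G1, a casein kinase, a dim junction probe was at -0.13 and 0.50 against -0.82 and -0.13. LARS, the leucyl-tRNA synthetase, and YTHDC2, an RNA helicase that binds methylated adenosine, shared another form. Their junction probes were near 0, at -0.01 and -0.04 in LARS and at 0.06 and -0.05 in YTHDC2, while the contiguous probes were at -0.57 and -0.64 and at -0.52 and -0.60. In both genes the junction probe lies to the 3′ side, by 50856.5 and 57748.5 bases. RAC2, a GTPase of blood cells, was at 1.05 and 0.65 in a dim junction probe and between 0.18 and 0.33 in its contiguous probes. The others of the 12 highest were FLJ42875, RAB1B and SPTLC2, with means of 0.60, 0.59 and 0.54. Of these 12, 6 lay to the 5′ side of their partners, 5 to the 3′ side and 1 between them. Over all pairs on 1 chromosome and strand the junction probe was on the 5′ side in 83.5%. Beyond 2 errors on both arrays were 2 of the 12, which were likewise picked for their size.

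Junction probes differ from contiguous probes in where they lie. Of 2052 pairs of a junction and a contiguous probe on 1 chromosome and strand, the junction probe was on the 5′ side in 1714 (83.5%), at a median distance of 5495 bases. Between contiguous probes of 1 gene the median distance was 1918 bases. The shift of array 1 followed this position. Where the junction probe lay over 300 bases to the 5′ side (1664 pairs), the median difference was -0.26 on array 1 and -0.01 on array 2. Where it lay within 300 bases (88 pairs) the medians were 0.01 and 0.02, and over 300 bases to the 3′ side (300 pairs) they were 0.06 and 0.02.

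Contiguous probes showed the same order on array 1. Those over 300 bases to the 5′ side of another contiguous probe (4456 pairs) had medians of -0.20 and -0.02. With growing distance to the 5′ side, in steps bounded by 300, 1000, 3000, 10000 and 30000 bases, the array 1 medians of junction probes were -0.12, -0.24, -0.26, -0.32 and -0.39. Those of contiguous probes were -0.15, -0.20, -0.21, -0.27 and -0.26. On array 2 the medians of junction probes were 0.05, 0.03, -0.02, -0.06 and -0.05. At like distance on the 5′ side the array 1 medians of the 2 kinds were at most 0.12 apart. Over 300 bases to the 3′ side they were farther apart, at 0.06 for junction and 0.20 for contiguous pairs, each contiguous pair being counted from both of its probes. Pairs share probes and genes, so these steps are a description. The part of position and of labelling in the shift was not tested.

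The shift was larger in the channels of array 1 than in those of array 2, and on array 1 it ran in opposite directions in the 2 RNAs. Set against the mean of the 4 channels, the difference between junction and contiguous probes of a gene had a median of -0.12 in the miR-204 RNA of array 1, which carried Cy5. It was 0.09 in the control RNA of that array and 0.02 in both channels of array 2. Between the 2 labellings of the same miR-204 RNA the median difference was -0.13, and between those of the control RNA it was 0.05. Comparing like dyes across the arrays, miR-204 against control gave -0.13 in Cy5 and -0.07 in Cy3.

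In the probes' own ratios, and not the differences within a gene, the shift of array 1 was present at each length of span. There it was largest for the shortest. The median log2 ratio was -0.28 for the 574 probes with spans up to 300 bases, -0.16 for 788 up to 1000, -0.12 for 831 up to 3000, -0.08 for 525 up to 10000 and -0.14 for 180 above that. On array 2 the shortest spans had the opposite sign, with a median of 0.10, and the longest had -0.06. The difference within a gene, in the mean of both arrays, had a median of -0.12 for ends over 1000 bases apart, against -0.10 for all. These medians were not split by array, nor taken for short spans alone. By signal, in 5 equal bins of the mean log2 signal of all counted probes, the array 1 medians of junction probes were -0.19, -0.22, -0.21, -0.15 and -0.05 from the dimmest to the brightest. Those of contiguous probes were between 0.02 and 0.06 in every bin. The brightest bin of junction probes therefore lay nearest to the contiguous probes.

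Junction probes reading the same junction gave nearly the same ratio. In 43 pairs from 33 gene names both ends lay within 60 bases of each other, and Pearson's r across pairs was 0.91 on array 1 and 0.82 on array 2, with median differences of 0.07 on each. For 223 pairs elsewhere in the gene r was 0.53 and 0.56, and the median differences were 0.24 and 0.14. The pairs share RNAs and arrays, and those of the first kind also share most of their bases. In PDIA3, an endoplasmic reticulum isomerase, the paired probes gave -1.36 and -0.37 and -1.19 and -0.40. A further PDIA3 junction probe downstream was also low on array 1, so that 3 of its junction probes were low there. RAC1, a GTPase that drives actin assembly, had 2 probes on 1 junction (chr7:6393406-6398105 and chr7:6393397-6398096, hg18). They gave -0.12 and -0.10, and -0.03 and -0.14. The contiguous RAC1 probe gave 0.19 and -0.07, and the differences of -0.31 ± 0.29 and -0.22 ± 0.29 on array 1 and -0.04 and -0.08 on array 2 were about as large as the errors or smaller.

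For some junction probes the spread among spots of 1 array was far smaller than the difference between arrays. Of the 27 junction probes spotted 10 times, 18 were counted, and the SD of the log2 ratio over their 10 spots had a median of 0.035 on array 1 and 0.046 on array 2. These SDs ran from 0.014 to 0.30 on array 1 and from 0.022 to 0.24 on array 2. The ratios had the same sign on both arrays for 5 of the 18, where 42.4% of all counted junction probes had the same sign. HRAS, the GTPase oncogene, was at -1.12 ± 0.034 (SD over 10 spots of 1 array) and at 0.26 ± 0.040 on array 2. DNTTIP2 was at 0.65 ± 0.032 and 0.03 ± 0.041, PCNA, the sliding clamp of DNA replication, at 0.44 ± 0.021 and -0.01 ± 0.029, and TGFB1 at -0.66 ± 0.073 and 0.11 ± 0.084. In each the ratio of 1 array lay outside the spot spread of the other by several SDs. The spread among spots covers printing and scanning, and not labelling.

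DTWD1 and FLJ21908 were likewise high on array 1 alone, at 0.69 and 0.58 against 0.00 and -0.02. NFKB2, an NF-kappaB subunit, was low there at -0.95 against 0.27. The SD over spots was wide for NFKB2, at 0.30 and 0.22, and for DTWD1 on array 2, at 0.24. For ABCB1 the SDs were 0.13 and 0.12, of like size to its ratio on array 2. The contiguous DTWD1 probes had 0.69 on array 1 and -0.06 and -0.23 on array 2, so that here junction and contiguous probes gave the same picture. Nearer to 0 on both arrays were SOD1, superoxide dismutase, at -0.04 and -0.04, ABCB1, a drug efflux pump, at 0.03 and -0.15, FN1, fibronectin, at 0.01 and -0.12, and KIF20A, a mitotic kinesin, at 0.07 and -0.12. MOCOS at -0.27 and -0.36 and SMC6, of a DNA repair complex, at -0.18 and -0.28 were below 0 on both. CDC2, ERGIC2, ITGB3BP and RAD50 were between -0.19 and 0.27 on array 1 and between -0.18 and 0.04 on array 2. The 9 not counted were ACE, HGF, IPO8, KNTC1, NOS3, PRIM1, RET, RPLP0 and TP73.

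Of other genes the study names, TRPM3, the host gene of miR-204, had 1 junction probe, spanning 15043 bases, and was well above background in no channel. BDNF, NTRK2, AKT1, FRAP1, RPS6, EIF4EBP1 and PARP1 had no junction probe. Of 30 genes of the actin cytoskeleton and adhesion, 12 gene names had 18 junction probes, of which 16 were counted and 1, Ezrin's, was lower by 2-fold. All 16 had a contiguous partner. The difference was below 0 for 13 of them on array 1 and for 7 on array 2, with medians of -0.30 and 0.04, where 71.8% and 51.2% of all 1435 junction probes with a partner were below 0 and the medians were -0.20 and -0.01. Among all counted junction probes 0.276% were lower by 2-fold. MYH9, non-muscle myosin, was at -0.82 and 0.31 in its junction probe against -0.03 and -0.09, and ACTB, beta-actin, at 0.13 and 0.31 and at 0.15 and 0.17 against 0.59 and 0.11. CDC42 was below its partner on both arrays, by -0.24 and -0.29, as was 1 probe of TPM3, a tropomyosin, by -0.52 and -0.14. In the other direction, 1 probe of TPM1, also a tropomyosin, was above its partner on both arrays, by 0.14 and 0.09.

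Of 25 genes of RNA splicing, 9 junction probes in 9 gene names were counted, and 7 of them had a partner. The difference was below 0 for 4 on each array, with medians of -0.09 and -0.03, beside the same 71.8% and 51.2% of all junction probes with a partner. HNRPA1, which binds pre-mRNA and has many processed copies in the genome, was at -1.26 and 0.12 in its junction probe against -0.05 and -0.10. SF3B1, of the branch point complex, was below its partner by -0.38 and -0.17, and HNRPU was above its partner by 0.22 and 0.004. Vesicle traffic had 3 counted junction probes, DNA replication and the cell cycle 5, and kinase signalling to mTOR 1. None of these and none of the splicing probes was past 2-fold in either direction.

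RPL21 had the most junction probes, 8, followed by BCR, BMS1, EEF1D and KIAA1641 among the gene names with 4. RPL21, a protein of the large ribosomal subunit, has copies across the genome, and 3 of its 8 probes lie on chromosome 10 rather than at chromosome 13, so that the reads of single copies cannot be told apart. Its 8 junction probes were between -0.11 and 0.11 on array 1 and between -0.38 and -0.25 on array 2. The mean of its contiguous probes was 0.13 and -0.27. The order of the arrays was thus reversed from that of most members, with the lower values on array 2 in both kinds of probe. In BCR, a kinase and GTPase regulator with partial copies on the same chromosome, the 4 junction probes ran from -0.81 to -0.21 on array 1 and from -0.07 to 0.66 on array 2. A_24_P162073, the most 5′ of them, had both extremes, -0.81 and 0.66, and A_24_P15270, the most 3′, had -0.21 and 0.29. EEF1D, a translation elongation factor subunit, showed the same order, with -0.78 and 0.27 in its most 5′ junction probe and between -0.35 and -0.02 on array 1 in the others. BMS1 and KIAA1641 each held values on both sides of 0 on array 1, from -0.49 to 0.18 and from -0.38 to 0.25.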

How the data were processed

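RNA of miR-204 and control cells was measured on 2 two-colour Agilent arrays, 1 dye swap, counted as 1 replicate. The authors extracted signals with Feature Extraction 9.5.3.1. The deposited processed signals are intensity values that this software corrected for background and dye; signals at or below background hold a floor value. Mean and local background intensity were deposited uncorrected. The deposited log ratio and its error are on the log10 scale, of Cy5 over Cy3. The authors' series table holds log2 ratios after quantile normalization of the ratios in MATLAB. It correlated at 0.993 and 0.994 with the log ratios turned to miR-204 over control. The software's p-value for each array was not used.

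Control spots and flagged outliers were dropped, saturated spots stayed, and the spots of each probe were averaged. Log2 processed signals were quantile normalized over the 4 channels with limma 3.58.1 (R 4.3.3). Further steps used Python 3.11.15 with pandas 2.3.3. Ratios are log2 of miR-204 over control, the dye swap turned. A difference is a junction probe minus the mean of the contiguous probes of the same gene name, and its error joins the errors of the probes, turned to log2, as for independent values. A call is a mean of 1 on the log2 scale with the same sign on both arrays. No test across conditions was made. The pairing and the calls were tested on simulated data. Of the 4408 gene names, 3068 were current RefSeq symbols, 590 older ones and 750 were not matched. Positions are those of the files (hg18). Probe sequences were not used here.

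The genes named are those of the study with a junction probe, the 12 lowest and 12 highest same-sign differences, the probes past 2-fold, the 5 gene names with most junction probes (ties by name), the probes spotted 10 times and the spans at both limits. Members of the gene lists, and PDIA3, named after its values were seen, are given as examples. Some genes that meet this rule are not reported here. The members, lists and rules were chosen with earlier results of these data known. Alternatives were other background corrections and normalizations, the deposited ratios, the filter, the threshold, the span, the partner, single arrays and the methods' t-test.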

Additional observations from a re-analysis of the deposited data

How the results depend on the processing

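The median difference between junction probes and same-gene contiguous probes was below 0 under all 18 alternatives run. It ranged from -0.006 with array 2 alone to -0.20 with array 1 alone, against -0.10, and by way of making the ratios from -0.24 to -0.15 on array 1 and between -0.009 and -0.006 on array 2. The share of differences with the same sign on both arrays was between 43.0% and 48.4%.

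The counts past 2-fold moved more. They were 8 lower and 1 higher, and 7 below and 0 above the partners. With normexp and loess, and also with mean signals left uncorrected, they were 2 lower, 0 higher and 3 below. The series table gave 5 lower, and quantile normalization of the ratios 1 above. With the filter on either RNA they were 22 lower, 3 higher and 15 below, and with no filter 54, 24, 40 and 18 above. At 2-fold on each array they were 0 lower, 0 higher and 1 below, and at 1.5-fold 72, 18, 66 and 8 above. With ends over 1000 bases apart they were 5 lower, 0 higher and 4 below. With each single array the ranges were 1 to 130 lower, 8 to 13 higher, 1 to 73 below and 3 to 4 above. The methods' t-test over the 4 channels with 2-fold gave 2 lower and 0 higher unadjusted, and 0 and 0 after Benjamini-Hochberg adjustment. By it, 170 of the 2898 junction probes were under 0.05 unadjusted and 0 adjusted, and it treats labellings of the same RNAs as samples. Chosen after seeing the data, leaving out PTMA gave 4 below, while a partner on the same chromosome and strand, and each array's median set to 0, kept every count within 1.5 times. The causes were not tested.

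No paired analysis was possible because both arrays hold the same RNAs and form a single replicate. The number of arrays limits what these values show. So does the signal over background for dim probes, among them those of TLN2, APOBEC3D, RAC2, CDC2L2 and CSNK1G1 and the contiguous probe of ZNF776.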
